A study of Mus musculus with 112 samples.

Results

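Nuclear genes for subunits of respiratory complexes II to V were followed in mouse hearts. The male mice came from 7 strains and were kept on caloric restriction (CR) or on a control diet. The members are Sdha, Sdhb, Sdhc and Sdhd together with every gene whose symbol begins with Uqcr, Cox4, Cox5, Cox6, Cox7, Cox8 or Atp5 and which had a probe set annotated to a single symbol. Of 19938 genes measured in this way, 46 met the rule: 4 of complex II, 8 of complex III, 17 of complex IV and 17 of complex V. Cox7c did not, because each of its 3 probe sets carries several symbols. The rule uses gene names, so nuclear subunits of these complexes with other names are not among the members.

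There were 14 groups of 8 mice, a CR group and a control group for each of 129S1/SvImJ, BALB/cJ, C57BL/6J, C3H/HeJ, CBA/J and DBA/2J, which are inbred, and for the hybrid B6C3F1/J, whose parents are C57BL/6J and C3H/HeJ. The labels name no transgene or engineered allele in any group. All mice lived singly on 84 kcal a week before CR began at the age of 8 weeks, and their hearts were taken 14 weeks later, at 22 weeks, following an overnight fast. Midway through, food was lowered further for C57BL/6J and 129S1/SvImJ mice under CR, and both arms of BALB/cJ were given more than the other strains, so a difference between strains cannot be told apart from these differences in feeding. Each array held the RNA of 1 heart, and values are log2 signals, on which a difference of 1 is a doubling.

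These complexes sit in the inner mitochondrial membrane. Complex II (succinate dehydrogenase) oxidizes succinate and passes the electrons to ubiquinone, complex III (ubiquinol-cytochrome c reductase) hands them on to cytochrome c, and complex IV (cytochrome c oxidase) delivers them to oxygen, while complex V (ATP synthase) makes ATP from the proton gradient that complexes III and IV help to build. The heart, which beats on oxidative metabolism, is among the tissues richest in them, and several subunits of complex IV come as a muscle isoform and a widely expressed isoform. All 4 subunits of complex II are nuclear, whereas the other complexes also hold subunits coded in mitochondrial DNA, which are not among the members.

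The promoters of 7 members are given here to set genes that rose with CR across strains beside genes that did not pass that test. Sdhd, Cox8a, Atp5h, Atp5o and Cox6b1 are among the 8 genes that rose, whereas Cox6a1 and Cox8b, the muscle isoform counterpart of Cox8a, were not called. Each is the RefSeq window (build GRCm38.p6) from 250 bases before to 50 bases after an annotated start, all on the minus strand and written in the direction of transcription. Capitals mark matches, on either strand, to GCGCANGCG (core of the NRF1 element), CCGGAAGT (ETS family element, bound by GABP) and AAGGTCA (estrogen-related receptor element). The windows are chr9:50603800-50604099 for Sdhd, chr19:7217567-7217866 for Cox8a, chr11:115419870-115420169 for Atp5h, chr16:91931581-91931880 for Atp5o, chr7:30626065-30626364 for Cox6b1, chr5:115348909-115349208 for Cox6a1 and chr7:140900397-140900696 for Cox8b.
Sdhd: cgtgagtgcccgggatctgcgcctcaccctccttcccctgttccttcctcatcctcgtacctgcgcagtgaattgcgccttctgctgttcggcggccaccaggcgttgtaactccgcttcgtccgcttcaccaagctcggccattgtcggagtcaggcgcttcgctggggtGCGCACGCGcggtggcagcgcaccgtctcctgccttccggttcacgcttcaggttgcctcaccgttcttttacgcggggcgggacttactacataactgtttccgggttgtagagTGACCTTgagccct
Cox8a: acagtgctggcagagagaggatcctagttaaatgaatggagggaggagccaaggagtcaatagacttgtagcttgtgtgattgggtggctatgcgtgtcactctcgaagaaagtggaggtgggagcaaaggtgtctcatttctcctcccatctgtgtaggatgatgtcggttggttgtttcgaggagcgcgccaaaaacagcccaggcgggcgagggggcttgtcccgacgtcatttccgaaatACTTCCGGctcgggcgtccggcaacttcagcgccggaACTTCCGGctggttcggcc
Atp5h: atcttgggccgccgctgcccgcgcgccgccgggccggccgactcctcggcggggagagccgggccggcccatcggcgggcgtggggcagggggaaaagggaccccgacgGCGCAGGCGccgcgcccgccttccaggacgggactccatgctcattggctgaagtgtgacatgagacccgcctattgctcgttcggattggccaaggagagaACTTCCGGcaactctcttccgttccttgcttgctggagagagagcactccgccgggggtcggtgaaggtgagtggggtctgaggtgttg
Atp5o: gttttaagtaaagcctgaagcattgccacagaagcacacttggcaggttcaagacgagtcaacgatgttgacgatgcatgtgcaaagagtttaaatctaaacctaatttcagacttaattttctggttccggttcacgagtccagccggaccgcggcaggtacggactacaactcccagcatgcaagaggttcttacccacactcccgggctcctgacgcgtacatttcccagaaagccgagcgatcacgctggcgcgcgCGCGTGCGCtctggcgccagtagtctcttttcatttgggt
Cox6b1: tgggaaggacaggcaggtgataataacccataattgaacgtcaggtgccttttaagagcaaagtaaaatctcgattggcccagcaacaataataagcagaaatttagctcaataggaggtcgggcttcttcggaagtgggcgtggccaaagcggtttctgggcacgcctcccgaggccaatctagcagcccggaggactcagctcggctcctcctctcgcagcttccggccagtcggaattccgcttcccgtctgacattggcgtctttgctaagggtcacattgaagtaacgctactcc
Cox6a1: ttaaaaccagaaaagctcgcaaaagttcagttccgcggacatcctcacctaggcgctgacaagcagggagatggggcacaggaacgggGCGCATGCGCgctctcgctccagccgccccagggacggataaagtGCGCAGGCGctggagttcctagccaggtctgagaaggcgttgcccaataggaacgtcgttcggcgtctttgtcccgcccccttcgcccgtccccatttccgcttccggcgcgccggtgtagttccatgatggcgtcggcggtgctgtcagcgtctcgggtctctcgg
Cox8b: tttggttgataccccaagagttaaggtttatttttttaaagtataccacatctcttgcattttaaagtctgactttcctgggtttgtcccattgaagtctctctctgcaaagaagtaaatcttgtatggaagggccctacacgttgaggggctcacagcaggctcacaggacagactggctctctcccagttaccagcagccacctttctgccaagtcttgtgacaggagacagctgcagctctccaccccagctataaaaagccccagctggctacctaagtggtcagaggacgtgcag
The Sdhd window held the NRF1 core and the estrogen-related receptor element, that of Cox8a held the ETS element at 2 places, that of Atp5h held the NRF1 core and the ETS element, and that of Atp5o held the NRF1 core. The Cox6a1 window, of a gene that was not called, matched the NRF1 core 3 times, with a pair of matches overlapping, and the Cox6b1 and Cox8b windows matched none of these letters. Windows were at hand for 35 of the 46 members. At least 1 element lay in 4 of the 6 genes that rose and had a window and in 14 of the 29 members with a window that were not called. The NRF1 core was found in 12 of the 35 (34.3%), against 7.03% of the 27025 genes with a window, and the ETS element in 4 (11.4%), against 4.31%. The estrogen-related receptor element was found in 5 members (14.3%), against 5.38% of genes, and AAGATGGC (the YY1 element) in 3 (8.57%), against 3.19%. The NRF1 letters are nearly their own reverse complement, so matches on both strands can overlap. Any of the 4 was found in 18 members (51.4%) and in 18.1% of genes. A match describes letters only.

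DBA/2J CR replicate 7 correlated at 0.262 with the mean of its group and was left out, as the study also did with 1 heart array, which left 55 CR and 56 control arrays. The other arrays lay at 0.894 or above (median 0.993), and in 6 further groups 1 array stood apart from its group by Dixon's test. The cardiomyocyte marker Tnnt2, cardiac troponin T, had a lowest, median and highest log2 signal of 12.55, 13.32 and 13.52 over all hearts. Tnni3 ran from 12.71 to 13.33, Myh6 from 10.73 to 13.11, Actc1 from 11.41 to 13.56 and Myl2 from 6.97 to 12.97. In CR minus control, the mean of 10 cardiomyocyte markers ran from -0.23 in B6C3F1/J to 0.29 in C57BL/6J. That of 5 ventricular markers ran from -0.20 in B6C3F1/J to 0.60 in C57BL/6J, with 0.34 in 129S1/SvImJ. The part of muscle content was not tested. Atrial markers were not even, with Myl7 between 4.22 and 12.66. The mean of 8 atrial markers was above 8 in 10 of 16 C57BL/6J hearts and 7 of 16 C3H/HeJ hearts. In B6C3F1/J it was so in 7 of 16 hearts, and in 129S1/SvImJ in 0 of 16. Fat cell markers such as Adipoq (3.19 to 10.05) and the brown fat marker Ucp1 (3.85 to 12.50) also varied. The mean of 4 brown fat cell markers differed in CR minus control by -1.77 in C57BL/6J to 0.32 in BALB/cJ.

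CR raised 8 members across strains and lowered none. They were Sdhd and Sdhc of complex II, Cox8a, Cox6b1 and Cox6a2 of complex IV, and Atp5h, Atp5o and Atp5d of complex V, with rises of 1.05-fold to 1.18-fold. The comparison asked whether CR shifts a gene on average over the 7 strains, as the mean of the 7 differences of CR minus control, tested with limma over all genes. Among all 19938 genes, 7.69% were called higher and 4.34% lower. In heart tissue, fewer cells of a type and less RNA per cell cannot be told apart. At an unadjusted p under 0.05, 1 member was lower, the dim Cox7b2, beside 2207 of all genes. With DBA/2J CR replicate 7 kept in, 0 members were called higher, beside 2.74% of genes, and the median of the members was -0.02. With that array left out, 4 of 9 macrophage markers were higher (list median 0.13), while 4 of 10 endothelial markers (-0.073) and 3 of 8 white fat cell markers (-0.226) were lower. The part of macrophage and endothelial cells in the result was not tested.

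Most members leaned the same way by small amounts. Of the 46 genes, 39 had an estimate above 0, against 9659 of the 19938 genes, and the median difference was 0.064 for the members and -0.003 for all genes. All 4 genes of complex II, all 8 of complex III, 11 of 17 of complex IV and 16 of 17 of complex V were above 0, with medians of 0.10, 0.05, 0.062 and 0.065. No member of complex III passed the threshold, and the estimates of these members lay between 0.02 and 0.10. The plot of the across-strain difference by gene shows complex IV spread on both sides of 0.

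**Figure D1:**
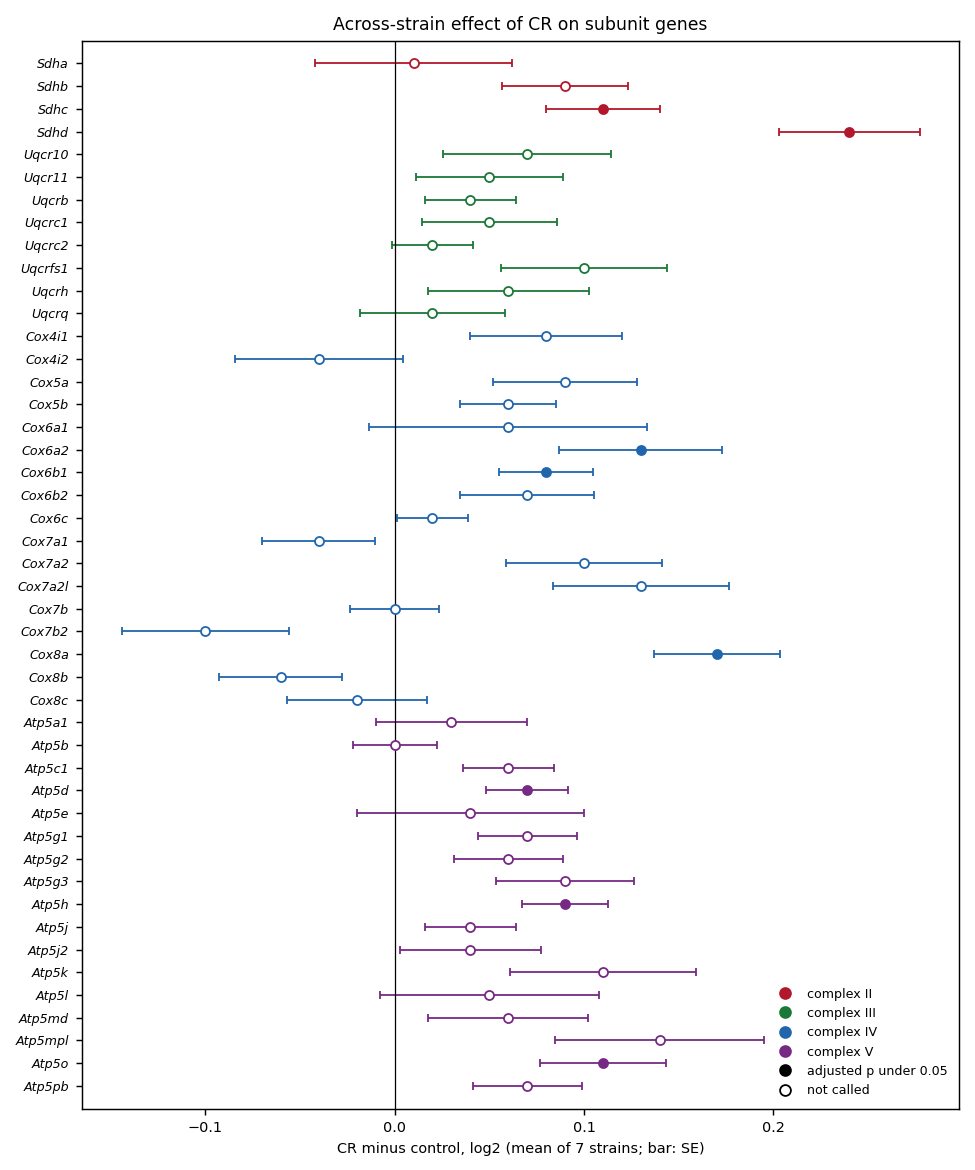
Mean over 7 strains of CR minus control (x axis, log2 units) for each of the 46 genes (y axis), with standard errors as bars, colours for the complexes and filled points for genes with an adjusted p under 0.05. Sdhd lies farthest right at 0.24, the 8 genes of complex III are all open points between 0.02 and 0.10, and Cox7a1, Cox8b, Cox8c, Cox4i2 and Cox7b2 lie left of 0.

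Sdhd, which codes for the small membrane anchor of complex II that takes part in ubiquinone binding, rose most among the members. Its mean was 10.98 in CR hearts and 10.74 in control hearts, a difference of 0.24 ± 0.0371 (SE), or 1.18-fold, with an adjusted p of 4.51e-07. In C57BL/6J the lowest, median and highest signals of Sdhd were 10.98, 11.23 and 11.33 in CR hearts, against 10.55, 10.78 and 10.88 in control hearts. In 129S1/SvImJ they were 10.51, 10.71 and 10.87 in CR hearts, against 10.15, 10.34 and 10.49 in control hearts. In both of these strains every CR heart was above every control heart.

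In the other strains the diets overlapped. Sdhd signals were 10.50, 10.83 and 11.07 in BALB/cJ CR hearts, against 10.13, 10.53 and 10.86 in BALB/cJ control hearts. They were 10.83, 11.19 and 11.39 in DBA/2J CR hearts, against 10.36, 11.03 and 11.13 in DBA/2J control hearts. C3H/HeJ gave 10.75, 11.01 and 11.19 under CR, against 10.71, 10.87 and 10.97 under control feeding. These 3 strains had the higher median under CR. B6C3F1/J had 10.62, 10.89 and 11.04 in CR hearts, against 10.39, 10.72 and 10.81 in control hearts. CBA/J had 10.80, 11.21 and 11.51 in CR hearts, against 10.14, 11.29 and 11.33 in control hearts. In CBA/J the median was thus lower under CR, although the mean, with 1 control heart at 10.14, was higher by 0.06. All 7 strain means were higher in CR hearts.

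The other anchor, Sdhc, averaged 11.04 in CR hearts and 10.93 in control hearts, a rise of 0.11 ± 0.0301 (adjusted p = 0.00743), and was higher in 6 of 7 strains. The iron-sulfur subunit Sdhb had a difference of 0.09 ± 0.0334 that missed the threshold (adjusted p = 0.0606), and the flavoprotein Sdha, which holds the catalytic site, had a difference of 0.01 ± 0.0521 (adjusted p = 0.913). Both called genes of complex II are thus its membrane anchors. Without BALB/cJ or without C57BL/6J, Sdhc was no longer called, at 0.07 and 0.09.

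**Figure D2:**
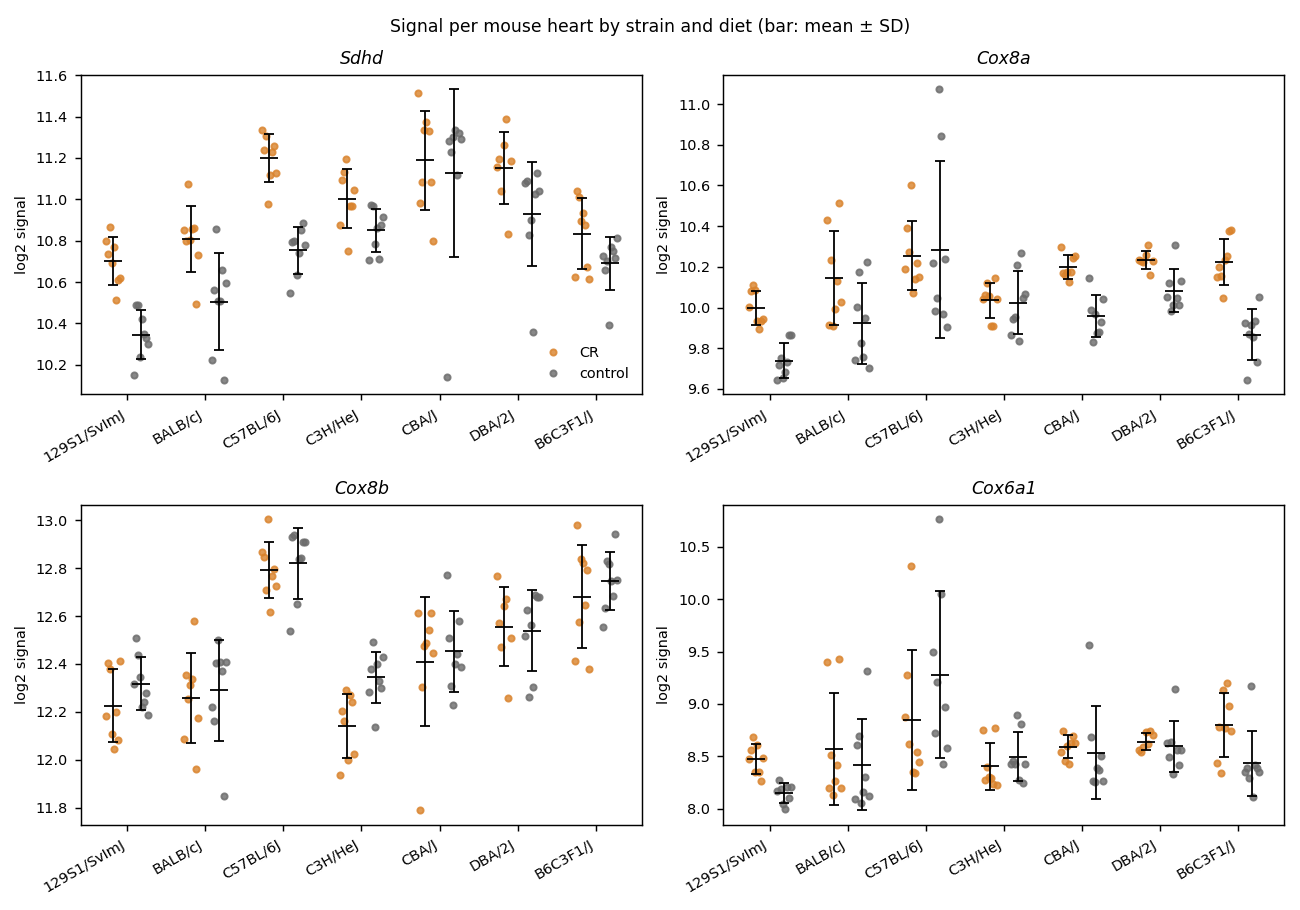
Log2 signal (y axis) of Sdhd, Cox8a, Cox8b and Cox6a1 in each mouse, with CR hearts (orange) left of control hearts (grey) within each of the 7 strains and bars for the mean ± SD of 8 mice (7 for DBA/2J CR). Sdhd separates the diets without overlap in 129S1/SvImJ and C57BL/6J, Cox8a does so in 129S1/SvImJ, Cox8b has overlapping diets in every strain, and Cox6a1 has single hearts as high as 10.76 in C57BL/6J control mice.

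Within complex IV, Cox8a, the widely expressed isoform of a small structural subunit, rose by 0.17 ± 0.0333 across strains (10.16 in CR hearts and 9.98 in control hearts, adjusted p = 5.3e-05). In 129S1/SvImJ its lowest, median and highest signals were 9.89, 9.97 and 10.11 in CR hearts, against 9.65, 9.72 and 9.86 in control hearts, with no overlap. In CBA/J they were 10.13, 10.17 and 10.30 in CR hearts, against 9.83, 9.95 and 10.14 in control hearts. In B6C3F1/J they were 10.05, 10.22 and 10.38 in CR hearts, against 9.64, 9.89 and 10.05 in control hearts. In CBA/J and B6C3F1/J the ranges only touched at their edges.

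The Cox8a medians were also higher under CR in BALB/cJ (9.91, 10.08 and 10.51 in CR hearts, against 9.70, 9.89 and 10.22 in control hearts). DBA/2J had 10.16, 10.23 and 10.31 in CR hearts, against 9.99, 10.05 and 10.31 in control hearts. In C57BL/6J, by contrast, signals were 10.07, 10.21 and 10.60 in CR hearts, against 9.90, 10.13 and 11.07 in control hearts, and the strain difference was -0.03. C3H/HeJ was nearly level, with 9.91 to 10.14 in CR hearts and 9.84 to 10.27 in control hearts. The methods' t-test was run within strains, here on log2 signals. At a p under 0.01, Cox8a was the only member that passed it in at least 4 strains, beside 93 genes in all (0.466%).

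Cox6b1, a subunit on the intermembrane side that links the monomers of the enzyme, rose by 0.08 ± 0.0249 (11.73 in CR hearts and 11.66 in control hearts, adjusted p = 0.0286). Cox6a2, the heart and muscle isoform of subunit 6a, rose by 0.13 ± 0.043 (12.03 in CR hearts and 11.90 in control hearts, adjusted p = 0.0317). Each was higher in 6 of 7 strains, and neither was called without C57BL/6J, CBA/J, DBA/2J or B6C3F1/J, nor Cox6b1 without 129S1/SvImJ and Cox6a2 without BALB/cJ. Cox7a2l, which joins complexes III and IV into supercomplexes, had a difference of 0.13 ± 0.0466 that just missed the threshold (adjusted p = 0.058). Among the remaining subunits of complex IV, Cox5a (0.09 ± 0.0381, adjusted p = 0.0983) and Cox5b (0.06 ± 0.0253, adjusted p = 0.0947) were not called, and Cox7b was level at 0.00 ± 0.0234. Cox6b2, Cox8c and Cox7b2, which are known mainly from testis, lay under the 40th percentile of signal, with differences of 0.07, -0.02 and -0.10 and no call.

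In complex V the 3 genes that rose belong to the stalks. Atp5h and Atp5o code for subunit d and the oligomycin sensitivity-conferring protein of the peripheral stalk, and Atp5d codes for the delta subunit of the central stalk. Other stalk genes were not called, namely Atp5pb (0.07, adjusted p = 0.0811), Atp5j (0.04, adjusted p = 0.296), Atp5e (0.04, adjusted p = 0.71) and Atp5c1. Atp5h rose by 0.09 ± 0.0229 (12.18 in CR hearts and 12.09 in control hearts, adjusted p = 0.00309) and was higher in 7 of 7 strains, by 0.04 in C3H/HeJ to 0.16 in C57BL/6J. Atp5o rose by 0.11 ± 0.0334 (11.20 in CR hearts and 11.08 in control hearts, adjusted p = 0.013), and Atp5d by 0.07 ± 0.0217 (12.81 in CR hearts and 12.74 in control hearts, adjusted p = 0.0166). Without 129S1/SvImJ neither Atp5o nor Atp5d was called, and Atp5d was not called without C57BL/6J or without DBA/2J either. With the mean of its probe sets in place of the brightest one, Atp5h had a difference of 0.07 and was not called.

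The catalytic subunits were not called. Atp5b, the beta subunit that carries the active sites, had a difference of 0.00 ± 0.0222 (adjusted p = 0.935), and Atp5a1, the alpha subunit, 0.03 ± 0.0399 (adjusted p = 0.701). The gamma subunit Atp5c1 of the central stalk had 0.06 ± 0.024 (adjusted p = 0.0684). Atp5g1, Atp5g2 and Atp5g3, which code for the same mature ring protein, had differences of 0.07, 0.06 and 0.09 and adjusted p-values of 0.0776, 0.135 and 0.078. The largest estimate among members of complex V that were not called was that of the small membrane subunit gene Atp5mpl, 0.14 ± 0.0552 (adjusted p = 0.0828).

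The isoform pairs of complex IV did not move as 1. For each of 4 pairs the CR difference of the muscle or minor isoform was subtracted from that of its partner. The diets were permuted within strains (100000 permutations, 2-sided, p-values adjusted over the 4 pairs). This test was added after the data were seen, with Cox8a already called higher in the same arrays. Other isoform sets, such as Cox6b1 and Cox6b2, were not tested, and marker means were not removed. Cox8b was also on the list of brown fat cell markers. Cox8a minus Cox8b, its muscle isoform, gave 0.24 ± 0.0487 (permutation p = 1e-05, the smallest that the permutations can give, adjusted p = 4e-05). The CR difference was 0.17 for Cox8a itself and -0.06 for Cox8b, and the difference between the isoforms was above 0 in 6 of 7 strains. Cox7a2 minus the muscle isoform Cox7a1 gave 0.15 ± 0.0331 (permutation p = 4e-05, adjusted p = 8e-05), with CR differences of 0.10 for Cox7a2 and -0.04 for Cox7a1. Cox4i1 minus Cox4i2, a minor isoform known from lung, gave 0.12 ± 0.0292 (permutation p = 0.0001, adjusted p = 0.000133) and was above 0 in all 7 strains.

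The subunit 6a pair did not follow. Cox6a1 minus the muscle isoform Cox6a2 gave -0.07 ± 0.105 (permutation p = 0.512, adjusted p = 0.512), and the 7 strains ran from -0.69 to 0.32. Without C57BL/6J the value was 0.03 (permutation p = 0.717). The other 3 pairs kept their direction and their call when arrays that stood apart, or any single strain, were left out. Of the single genes in these 3 pairs, only Cox8a passed the across-strain test on its own.

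Within single strains few members were called. In 129S1/SvImJ, 4 members rose, beside 6.83% of all genes called in either direction. They were Sdhd (0.35 ± 0.0659, adjusted p = 0.00204), Cox6a1 (0.32 ± 0.0669, adjusted p = 0.00502), Cox8a (0.26 ± 0.0565, adjusted p = 0.00674) and Cox7a2l (0.32 ± 0.0855, adjusted p = 0.0289). With all 14 groups in a single fit only Sdhd was called there (adjusted p = 0.0254, against 0.556 for Cox6a1, 0.109 for Cox8a and 0.208 for Cox7a2l), beside 1.41% of genes called higher. In C57BL/6J, Sdhd rose by 0.45 ± 0.0771 (adjusted p = 0.0157), beside 0.251% of genes called. In B6C3F1/J, Cox8a rose by 0.36 ± 0.0769 (adjusted p = 0.0322), beside 0.908% of genes.

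No member was called in BALB/cJ, C3H/HeJ, CBA/J or DBA/2J, where 0%, 0.0552%, 0.015% and 0.01% of all genes were. At an unadjusted p under 0.05, limma gave 3, 5, 2 and 1 members in these strains, beside 6.53%, 7.34%, 6.77% and 5.11% of all genes, and the methods' t-test with adjustment gave 0 in each. Of all 322 pairings of a member with a strain, only Sdhd in 129S1/SvImJ, Sdhd in C57BL/6J and Cox8a in 129S1/SvImJ had diets that did not overlap, each with all CR hearts higher. Of all genes, 0.928% were without overlap and higher under CR in 129S1/SvImJ and 0.0903% in C57BL/6J. The median of the members leaned upward in 6 strains, by 0.055 in BALB/cJ to 0.115 in C57BL/6J, and was -0.014 in C3H/HeJ, where 19 of 46 members were above 0. For all genes the strain medians lay between -0.003 and 0.012.

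**Figure D3:**
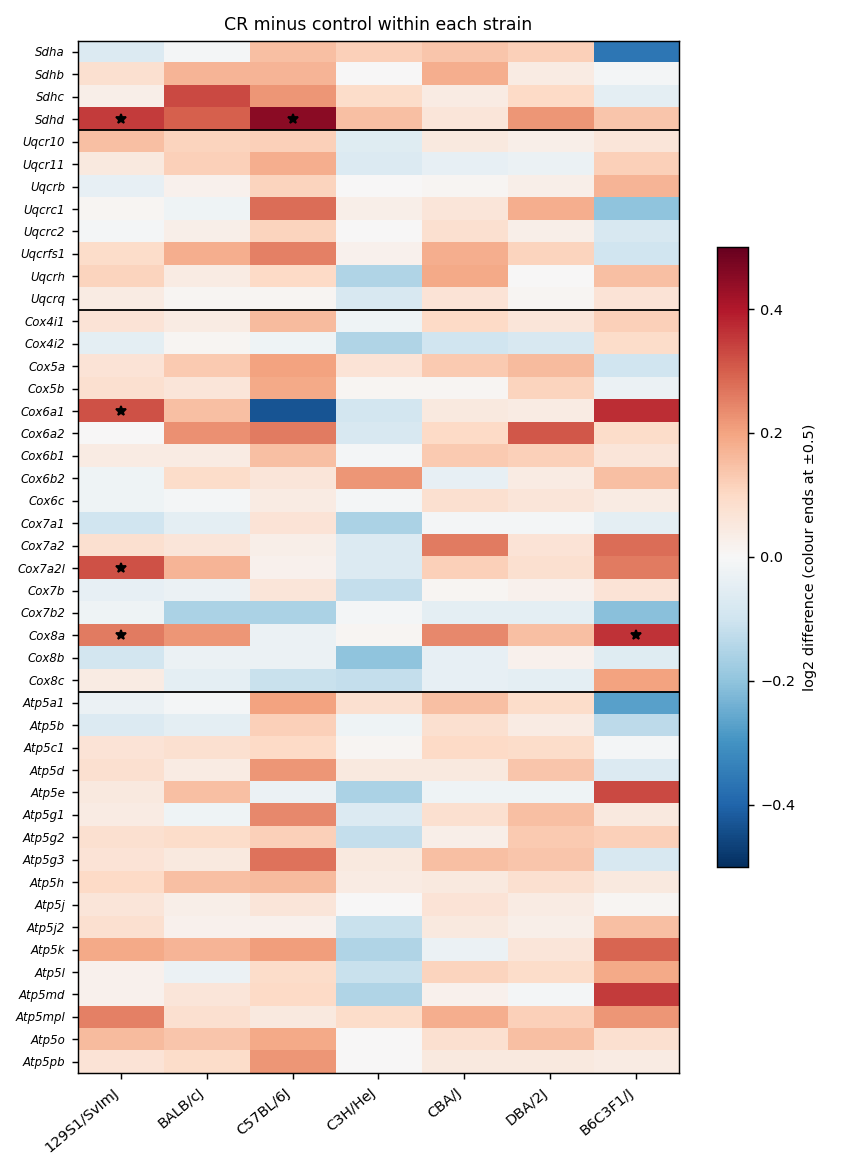
CR minus control in log2 units (colour, red for higher in CR, ending at ±0.5) for each of the 46 genes (rows, complexes II to V from the top, split by lines) in each of the 7 strains (columns), with a star where limma within the strain gave an adjusted p under 0.05. The 6 stars are on Sdhd, Cox6a1, Cox8a and Cox7a2l, and the C3H/HeJ column is mostly pale, with a median of -0.014.

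Whether strains differed in their response was tested by the strain by diet interaction. No member passed, and 142 of all genes (0.712%) did. At an unadjusted p under 0.05 by limma's moderated F there were 5 members beside 2928 genes (14.7%). They were Sdhc (adjusted p = 0.261), Cox8a (adjusted p = 0.276), Uqcrc1 (adjusted p = 0.279), Atp5d (adjusted p = 0.284) and Atp5b (adjusted p = 0.322), followed by Atp5g1 (adjusted p = 0.344). Sdhc ran from -0.05 in B6C3F1/J to 0.33 in BALB/cJ, and Uqcrc1, a core subunit of complex III, from -0.20 in B6C3F1/J to 0.28 in C57BL/6J. With all arrays that stood apart left out, 6 members passed (Atp5a1, Atp5g3, Cox6a1, Sdhc, Sdhd and Uqcrc1), beside 9.18% of genes, and with array weights 14 did, beside 26.1% of genes. With each array that stood apart left out in turn, no member passed. The number of members with an interaction thus varied with the setting, and the cause was not tested.

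Cox6a1, the widely expressed isoform of subunit 6a, varied widely between mice, as did the atrial markers. In C57BL/6J its signals were 8.34, 8.58 and 10.31 in CR hearts, against 8.43, 9.09 and 10.76 in control hearts. The mean of the 8 atrial markers in these mice ran from 6.43 to 10.31 in CR hearts, against 7.03 to 11.09 in control hearts, and its CR minus control difference was -2.03. In B6C3F1/J, Cox6a1 signals were 8.34, 8.78 and 9.20 in CR hearts, against 8.11, 8.37 and 9.17 in control hearts, and the atrial marker mean was 1.11 higher under CR. The CR difference of Cox6a1 was -0.43 in C57BL/6J and 0.37 in B6C3F1/J, neither called.

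In 129S1/SvImJ, where Cox6a1 was called, the atrial marker mean lay between 6.75 and 6.87 in CR hearts and between 6.65 and 6.88 in control hearts, so it hardly varied. Its Cox6a1 signals were 8.26, 8.48 and 8.68 in CR hearts, against 8.00, 8.18 and 8.27 in control hearts, which overlapped only between 8.26 and 8.27. The white fat cell marker mean of this strain differed by -0.29 in CR minus control. With the atrial and the white fat cell marker means as covariates, Cox6a1 had an across-strain difference of 0.16 (adjusted p = 0.00178), against 0.06 (adjusted p = 0.673) without them. Cox8a then had 0.21 (adjusted p = 2.69e-09) and Sdhd 0.23 (adjusted p = 4.9e-08), and 12 members were called higher, beside 8.48% of genes, the 8 above with Cox5a, Cox6a1, Cox7a2l and Sdhb. Within 129S1/SvImJ, C57BL/6J and B6C3F1/J no member was called in that fit, although Cox6a1 kept a difference of 0.32 in 129S1/SvImJ and Sdhd one of 0.41 in C57BL/6J.

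Most members differed between strains. Over the CR hearts of the 6 inbred strains, 39 of 46 members differed by the moderated F test, beside 43% of all genes. Over the control hearts, which are other mice, 35 members did, beside 52.6% of genes. Of these 35 members 33 were also called in CR hearts, as were 67.9% of all genes called in control hearts. A difference in RNA between strains cannot be told apart here from a sequence difference under a probe, nor from the order in which strains were handled. Each strain was then set against the mean of the other 5 inbred strains.

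BALB/cJ hearts had, on balance, the lowest signals of these genes. Of the 46 members, 22 were lower in BALB/cJ CR hearts than in CR hearts of the other inbred strains (5.09% of all genes) and 0 were higher (7.34% of genes). Among control hearts 22 members were again lower (4.88% of genes), 18 of them the same, and 1, Atp5d, was higher (7.01% of genes). The median of the members was -0.189 in CR hearts, with 44 of 46 below 0, and -0.214 in control hearts, with 43 below 0. Without BALB/cJ control replicate 7, an array that stood apart, 13 members were lower in control hearts, beside 3.81% of genes, and with DBA/2J CR replicate 7 kept in, 1 was lower in CR hearts, beside 1.28% of genes. Of all genes lower in BALB/cJ control hearts, 56.8% were also lower in CR hearts. The 18 genes came from every complex: Sdhb, Sdhc and Sdhd of complex II, Uqcr10 and Uqcrh of complex III, Cox4i1, Cox5b, Cox6b2, Cox7a2 and Cox7a2l of complex IV, and Atp5c1, Atp5h, Atp5j, Atp5j2, Atp5k, Atp5l, Atp5mpl and Atp5pb of complex V.

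C57BL/6J hearts went both ways. In CR hearts 20 members were higher (11.4% of genes) and 4 lower (18.5% of genes), and in control hearts 15 were higher (15.8% of genes) and 8 lower (21.8% of genes). Under both diets 13 members were higher and 4 were lower, namely Atp5d, Atp5g3, Cox5b and Sdhc. Of all genes called in C57BL/6J control hearts, 49.3% of the higher ones and 63.2% of the lower ones were so in CR hearts too. The atrial marker mean of this strain averaged 7.75 in CR hearts and 9.78 in control hearts. Its white fat cell marker mean averaged 7.20 in CR hearts and 8.19 in control hearts. The brown fat cell marker mean was 6.01 in CR hearts and 7.78 in control hearts, and its part was not tested. With the atrial and white fat cell marker means as covariates, 25 members were higher (13.1% of genes) and 4 lower (15.1% of genes) in C57BL/6J control hearts. With DBA/2J CR replicate 7 kept in, 7 were higher (5.93% of genes) and 0 lower (7.51% of genes) in its CR hearts. In the remaining inbred strains, 15 members of 129S1/SvImJ differed in either direction in control hearts (16.7% of genes), 8 of DBA/2J (7.35%), 7 of CBA/J (20.7%) and 3 of C3H/HeJ (4.71%).

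**Figure D4:**
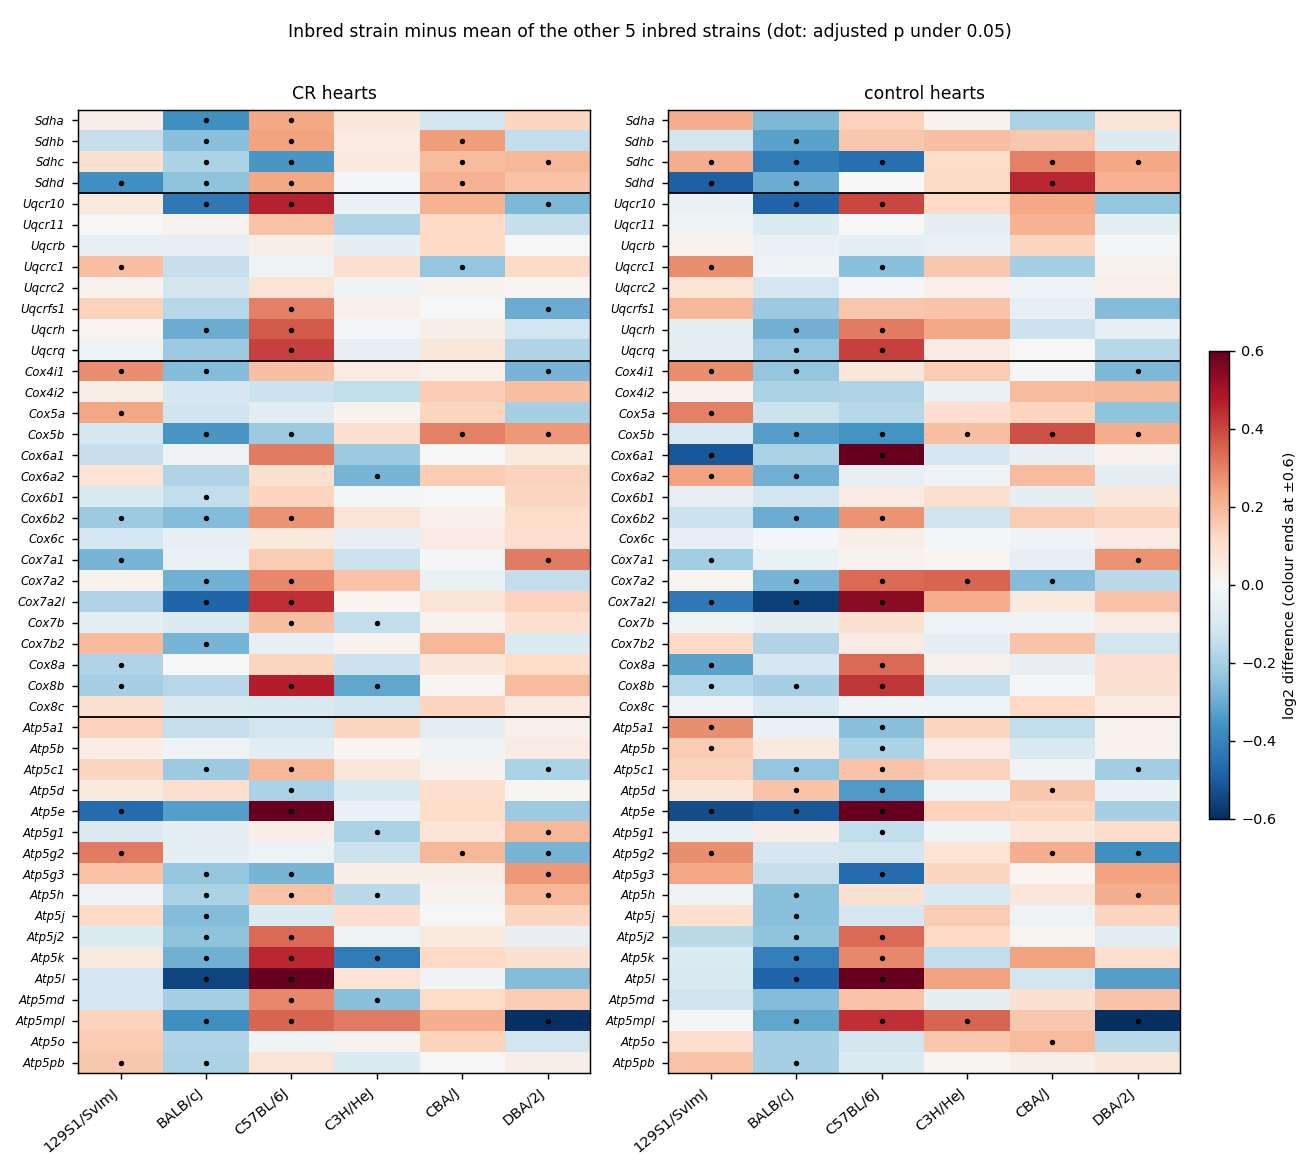
Each inbred strain minus the mean of the other 5 inbred strains in log2 units (colour), for 46 genes in CR hearts (left panel) and control hearts (right panel), with a dot where limma gave an adjusted p under 0.05. The BALB/cJ column is mostly blue in both panels (medians of -0.189 in CR hearts and -0.214 in control hearts), and Atp5e and Atp5l stand out in red in C57BL/6J.

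Among single genes, Cox5b, a zinc-binding nuclear subunit of complex IV, separated the inbred strains most (F = 27.4, adjusted p = 6.7e-12 in control hearts). Against the other inbred strains, BALB/cJ, C57BL/6J and CBA/J CR hearts differed by -0.35, -0.22 and 0.30. Control hearts of these strains gave -0.33, -0.36 and 0.38, and all 6 values were called. The lowest, median and highest Cox5b signals were 12.18, 12.31 and 12.41 in CBA/J control hearts, against 11.54, 11.67 and 11.94 in C57BL/6J control hearts, with no overlap.

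The epsilon subunit gene Atp5e of complex V showed the largest strain difference. C57BL/6J CR hearts were 0.95 ± 0.121 above those of the other inbred strains (adjusted p = 1.18e-08), and C57BL/6J control hearts 0.98 ± 0.12 (adjusted p = 3.17e-09). Its signals were 9.30, 9.80 and 10.42 in C57BL/6J control hearts, against 8.47, 8.61 and 8.88 in 129S1/SvImJ control hearts. Atp5l, the gene for subunit g, went the same way, 0.85 higher in C57BL/6J CR hearts and 0.78 higher in C57BL/6J control hearts. The hybrid lay between its parents for Atp5e, with a mean of 9.32 in B6C3F1/J control hearts, against 9.86 in C57BL/6J and 9.16 in C3H/HeJ.

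Cox7a2l was 0.44 higher in C57BL/6J CR hearts (adjusted p = 0.000755) and 0.54 higher in C57BL/6J control hearts (adjusted p = 9.96e-07), and in BALB/cJ it differed by -0.48 in CR hearts and -0.56 in control hearts. C57BL/6 mice are known to carry an allele of this gene for a shortened protein, whose part in these signals was not tested. Sdhd differed by -0.37 in 129S1/SvImJ and 0.21 in CBA/J CR hearts, and by -0.49 and 0.45 in control hearts of the same strains, so the level of the gene that CR raised most also depended on strain. The strain with the lowest control signals, 129S1/SvImJ, had a CR mean of 10.70, which was still under the control mean of 11.13 in CBA/J. Atp5mpl differed by -0.65 in DBA/2J CR hearts and by -0.64 ± 0.107 in DBA/2J control hearts. Sdhc, Atp5g2, Cox8b and Atp5d were the other genes among the 10 with the smallest p.

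B6C3F1/J hearts were set against the mean of both parents in control mice. There 6 members were higher (5.18% of genes) and 1 lower (3.2% of genes), with a median difference of 0.081, against -0.002 for all genes. Uqcrc1 was 0.39 ± 0.0936 higher in the hybrid (11.59 in the hybrid and 11.19 for the parents, adjusted p = 0.00404), Cox7a1 0.26 ± 0.0703 (adjusted p = 0.0114) and Uqcr11 0.32 ± 0.0908 (adjusted p = 0.019). Cox8a differed by -0.29, at 9.87 in the hybrid and 10.15 for the parents (adjusted p = 0.0336). Without C3H/HeJ control replicate 6, 3 members were higher (4.35% of genes) and 0 lower (2.23% of genes). With the atrial and fat cell markers as covariates, 1 was higher (3.82% of genes) and 2 were lower (2.71% of genes).

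Between mice of the same group the members rose and fell together more than genes at large. After group means and the atrial and white fat cell marker means were taken out of each gene, the mean correlation between members over the 55 CR and 56 control hearts was 0.232 (Pearson) and 0.234 (Spearman), against 0.004 and 0.006 between all genes. Within complexes it was 0.353 for II, 0.246 for III, 0.234 for IV and 0.249 for V (Pearson). In the 16 hearts of 129S1/SvImJ alone, with only group means removed, it was 0.185 for the members and 0.004 for all genes. Of the members, 40 lay above the 90th percentile of signal, and the members were not compared with other genes that bright. Hearts share their array and RNA sample over all genes, so these correlations are a description.

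The members did not form a single block. Of 1035 pairs, 264 correlated below 0. Atp5a1, Atp5b and Atp5d of complex V, Sdha of complex II and Uqcrc1 of complex III had median correlations of -0.29, -0.34, -0.23, -0.33 and -0.14 with the other members, and of -0.36, -0.34, -0.33, -0.42 and -0.25 in 129S1/SvImJ alone. With only group means removed over all hearts, the medians of these genes were -0.03, -0.30, -0.08, -0.14 and 0.25, so that of Uqcrc1 turned positive. These genes include the flavoprotein Sdha and the catalytic subunits Atp5a1 and Atp5b, whereas the iron-sulfur subunit Sdhb of complex II had a median of 0.39. Atp5c1, Cox4i1, Cox7a2 and Uqcrq had the highest medians, 0.55, 0.53, 0.53 and 0.53. Of the genes that rose with CR, Sdhd had a median of 0.23, Sdhc 0.12, Cox8a 0.01 and Cox6b1 0.50. Cox6a2 had 0.03, Atp5h 0.34, Atp5o 0.32 and Atp5d -0.23. Pairs of these genes correlated between -0.27 (Atp5d with Atp5h) and 0.56 (Atp5o with Cox6b1).

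**Figure D5:**
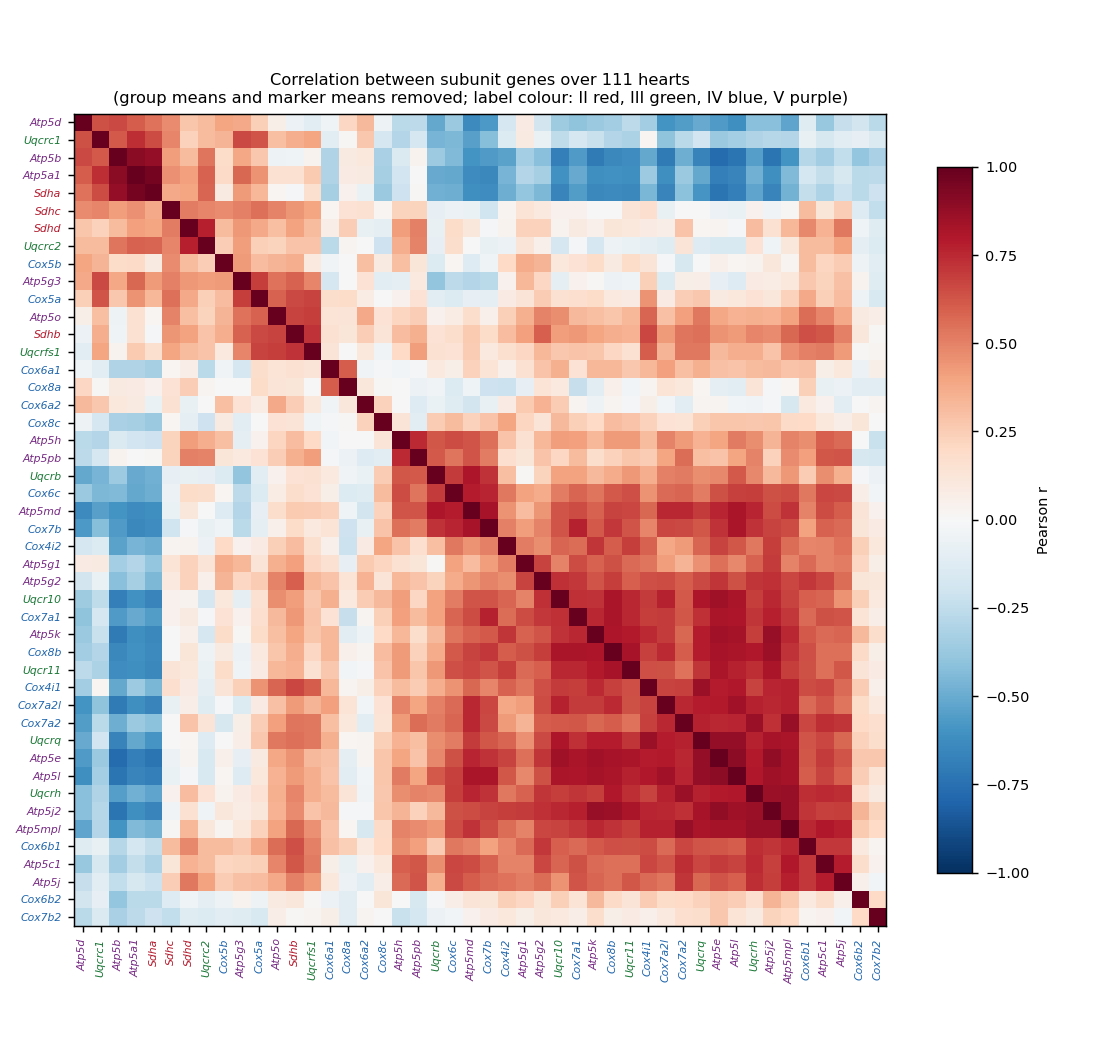
Pearson correlation (colour) between all pairs of the 46 genes over the 55 CR and 56 control hearts after removal of group means and of the atrial and white fat cell marker means, with genes on both axes in clustered order and label colours for the complexes. A small block with Atp5a1, Atp5b, Atp5d, Sdha and Uqcrc1 at the upper left is negatively correlated with a large block of small subunits at the lower right.

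The surrounding genes of the pathway moved in the same comparison as follows. Among 33 measured assembly factors of complexes II to V, 20 rose and 0 fell, with a median of 0.136. They included Cox11, which delivers copper to complex IV (0.16 ± 0.0246, adjusted p = 2.19e-07), Bcs1l and Lyrm7, which bring the iron-sulfur protein into complex III (0.23, adjusted p = 6.56e-06, and 0.21, adjusted p = 6.76e-05), and Higd1a (0.28, adjusted p = 2.45e-05). Of 35 complex I subunits 8 rose and 0 fell, with a median of 0.082, led by Ndufc2 (0.16, adjusted p = 3.42e-05), with Ndufc1, Ndufa8 and Ndufb7 at 0.14, 0.13 and 0.17. These counts stand beside the 7.69% of all genes called higher.

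Of 22 electron and metabolite carriers 7 rose, among them the ADP/ATP carrier Slc25a5 (0.22, adjusted p = 1.37e-08), the outer membrane channels Vdac2 and Vdac3 (0.13 each) and Coq7 of ubiquinone synthesis (0.16), and 1 fell, Etfdh (-0.15, adjusted p = 0.0396), which feeds electrons from fatty acid oxidation to ubiquinone. Among 16 regulators of mitochondrial genes, Ppargc1a, the coactivator PGC-1alpha, rose by 0.34 ± 0.0558 (adjusted p = 2.03e-06) and Ppara by 0.29 (adjusted p = 0.000953). Yy1 fell by 0.11 (adjusted p = 0.00016), Pprc1 by 0.14 (adjusted p = 0.0102) and Nrf1 by 0.10 (adjusted p = 0.0327). The citric acid cycle, which complex II shares, had 2 of 13 enzymes higher (Idh3a by 0.09 and Suclg1 by 0.10) and 0 lower, with a median of 0.013. Of 4 uncoupling proteins none was called across strains, and Ucp3 had a strain by diet interaction (adjusted p = 4.54e-06).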

How the data were processed

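Total heart RNA (5 µg) was biotin-labelled and hybridized to Affymetrix Mouse Gene 1.0 ST arrays, 1 mouse per array. Each deposited value is the log2 signal of a probe set in 1 array. The authors ran Affymetrix Expression Console with RMA (background correction, quantile normalization and probe summary), in versions not given in the sources used here. Signals are relative to the other arrays, so a shift common to most genes is partly removed, and dim signals are compressed. Precision is limited by the number of arrays.

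Of 35556 probe sets, 21789 carried a single symbol in the annotation of the platform, 1621 several and 12146 none, and the brightest stood for each gene (999 genes, 12 of them members, had several), which gave 19938 genes without a filter on signal. Probe sets can also capture RNA of closely related copies of these genes, which was not tested.

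Group means were fitted in R 4.3.3 by lmFit and eBayes of limma 3.58.1, with tables read by the package data.table (version 1.17.8), with Benjamini-Hochberg adjustment over all genes within each test, a threshold of 0.05 and 2-sided tests. Within-strain effects used the arrays of that strain, and strain differences used the arrays of 1 diet. The methods' t-test was run within strains on log2 signals, whereas the study describes it on the raw scale and used its own gene set. Isoform pairs were tested by permuting diets within strains, a test added after the data were seen. Plots used matplotlib 3.10.9 and summaries scipy 1.17.1, pandas 2.3.3 and numpy 2.4.6 in Python 3.11.15, and the fit was tested on simulated data. Replicate numbers of CR and control mice mark no shared animal.

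The members and lists were chosen with earlier results of these data known. Named genes were members past the across-strain threshold, subunits of complex II, isoform sets, up to 4 members per strain, 6 for the interaction, 10 for the F test in control hearts, 4 for the hybrid contrast and up to 4 per pathway list. Others named were chosen after their values were seen. Promoter windows came from RefSeq (GRCm38.p6), and 35 members matched by gene identifier. Alternatives were another quantile normalization, median centering, a filter at the 40th percentile of signal (log2 5.201), the mean of probe sets, array weights, trended and robust variance, a replicate block, ANOVA without moderation, 1 fit for all groups, marker covariates, all arrays, and leaving out strains or arrays.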

Additional observations from a re-analysis of the deposited data

Results flagged for a closer look

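Single hearts stood far from the rest of their group for 10 named genes, by Dixon's test, which flags about 1 in 20 groups by chance. In all, 140 groups were tested and 18 gave such a heart. CBA/J control replicate 1, an array that stood apart over all genes, was low for Sdhd (10.14, others 11.12 to 11.33), Sdhc (10.78, others 11.19 to 11.27) and Atp5o (10.97, others 11.21 to 11.34) and high for Cox6a1 (9.56, others 8.25 to 8.68). DBA/2J control replicate 5, which also stood apart, was low for Sdhd (10.36, others 10.83 to 11.13) and Sdhc (10.58, others 11.01 to 11.33) and high for Cox8a (10.31, others 9.99 to 10.13) and Cox6a1 (9.14, others 8.33 to 8.63). C57BL/6J CR replicate 4, another such array, was low for Sdhc (10.40, others 10.72 to 10.94), Atp5o (10.69, others 11.14 to 11.35) and Cox6a2 (11.11, others 12.07 to 12.45).

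The other hearts were on arrays that did not stand apart. B6C3F1/J control replicate 4 was low for Sdhd (10.39, others 10.66 to 10.81) and high for Cox6a1 (9.17, others 8.11 to 8.41), and B6C3F1/J control replicate 7 was high for Cox7a2l (8.89, others 7.96 to 8.37). CBA/J CR replicate 2 was low for Cox6b1 (11.40, others 11.69 to 11.82) and Cox6a2 (11.76, others 12.11 to 12.31). C57BL/6J control replicate 8 was low for Atp5d (12.06, others 12.38 to 12.59), and 129S1/SvImJ CR replicate 8 was high for Atp5o (11.56, others 11.21 to 11.33).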

How the results depend on the processing

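The count of members higher in CR across strains was 8 (7.69% of genes), and 21 with array weights (12.2%), 13 with a replicate block (8.06%), 5 without 129S1/SvImJ (4.34%), 4 without C57BL/6J (6.75%), 5 without DBA/2J (7.21%) and 0 with all arrays (2.74%), that is with DBA/2J CR replicate 7. Leaving out in turn each other array that stood apart gave 8 to 11. Sdhd, Cox8a and Atp5h were among the members called under each strain left out. The count lower in CR was 0, and 1 with another quantile normalization (Cox7b2) and with array weights (Cox8b). The interaction count was 0, and 14 with array weights, 1 with the means of atrial and white adipocyte markers as covariates (Cox6a1) and 6 with all arrays that stood apart left out. Within strains, 129S1/SvImJ had 4 called, and 0 with the covariates and 1 with all groups in one fit. C57BL/6J had 1 called, and 8 with array weights, 0 with the replicate block (Sdhd 0.45, adjusted p = 0.0565), 0 with the covariates, 3 in one fit and 2 without CR replicate 4, which is also the count with all arrays that stood apart left out. CBA/J had 1 called with array weights. B6C3F1/J had 1 called, and 8 with array weights, 0 with the covariates and 2 in one fit. The cause of these changes was not tested.

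Over inbred CR hearts 39 members differed, and 9 with all arrays. Members lower in BALB/cJ were 22 in CR hearts, and 1 with all arrays, and 22 in control hearts, and 13 to 26 with single arrays left out. In C57BL/6J control hearts 15 were higher and 8 lower, and 25 and 4 with the covariates, and 13 lower with all arrays that stood apart left out. In the hybrid 6 were higher and 1 lower. With the covariates these were 1 and 2, with single arrays left out 3 to 8 and 0 to 1, and lower ones were 0 after median centering and 4 with array weights. Of the other alternatives, 255 counts and isoform tests kept within 1.5 times or kept their call, while 29 values of named genes were no longer past the threshold. With all arrays the median across-strain difference of the members was -0.02, against 0.064 in the main fit, so some members changed sign. Replicate numbers shared by CR and control mice pair no animals. The median correlation of same-numbered deviations lay between -0.124 and 0.304 by strain. In 129S1/SvImJ and BALB/cJ, 4 of 8 mice were best matched by their own number, and in the other strains 1 or 2 were. Whether same-numbered hearts were handled together was not tested. Dim members, with log2 signals near background, limit what Cox6b2, Cox8c and Cox7b2 can show.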
